A study of Sus scrofa with 54 samples.

Results

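Fibronectin (FN1, ENSSSCG00000016174), transforming growth factor beta 1 (TGFB1, ENSSSCG00000003017) and procollagen-lysine hydroxylase 1 (PLOD1, ENSSSCG00000003433) were followed through blood, skeletal muscle and heart biopsies of pigs. They are 3 of the 25114 genes counted. They were chosen by their measured expression: the study drew them from genes that were higher in some outlying follow-up micro-biopsies than in other micro-biopsies, and the labels do not say which samples these were. The levels of the 3 genes within the micro-biopsies, and against them, are therefore given as a description without a test. Blood, skeletal muscle and conventional biopsies had no part in that choice and were tested.

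FN1 encodes a large glycoprotein that is deposited early in a wound and holds cells, collagen and growth factors together through integrins. TGFB1 is secreted in a latent form that is stored in the matrix, and once released it signals through its receptors and SMAD proteins to switch on matrix genes in fibroblasts, FN1 and collagens among them. PLOD1 works inside the cell, where it hydroxylates lysines of new collagen chains so that lysyl oxidases can later cross-link them. Injured myocardium is replaced by a scar in which fibroblasts make most of this matrix, while white cells and platelets are well known sources of TGFB1.

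The animals were 5 adult female Yorkshire-Swedish farm pigs that had received no earlier intervention. Micro-EMB samples were taken from the left ventricle (LV) with the miniaturized device, 20 at baseline (day 0) and 12 at follow-up (day 7). Conventional EMB samples were cut from the LV with a forceps bioptome, 6 at baseline and 4 at follow-up. Blood and skeletal muscle were sampled at baseline only, with 6 samples each. All conventional EMB, blood and skeletal muscle samples came from pigs 4491 and 4494. Pigs 4493, 4664 and 4665 gave micro-EMB samples alone, and pig 4493 had no follow-up. Every pig sampled at follow-up had been biopsied at day 0, so that time and the earlier sampling cannot be told apart. Several biopsies came from each pig. The p-values for blood, skeletal muscle and conventional EMB measure the spread between samples within 2 animals. Those for other genes in micro-EMB measure the spread between samples within 5 animals.

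Levels are read counts scaled to library size with TMM factors (TMM CPM) over all 54 libraries. Between 64216 and 4649613 reads were counted on genes per library, and 14 libraries were under 1000000. Micro-EMB samples 9, 10 and 21, all taken at baseline, had fewer than 5000 genes at 1 CPM and are left out below unless named. TGFB1 and PLOD1 had 0 counts in these 3 libraries. The study left out 7 samples with signs of blood contamination before its comparisons, and the labels do not name them. The main fits here left out no sample on that ground. Some LV libraries stood apart from their label. Only 4 of 9 cardiomyocyte markers matched a gene (MYH6, TNNT2, ACTC1 and RYR2). Their summed level was 84.3 to 6771 TMM CPM in conventional EMB samples 38 and 55 and micro-EMB samples 4, 36 and 52, against 12319 to 167134 in the 30 LV libraries that did not stand apart. These 5 are called cardiomyocyte-poor, defined on CPM before TMM scaling as a sum under 0.1 times the LV median. Conventional EMB sample 3, with 6337 TMM CPM, lay above that limit on the unscaled values and was not counted among them, although its TMM CPM was below that of sample 52. No matched cardiomyocyte marker was at 0 in all 5, although ACTC1 had no count in some. Of the white cell and platelet markers, 4 of 11 matched, and the platelet markers PPBP, PF4 and ITGA2B were not among them. The matched ones were PTPRC, CD2, S100A8 and CSF3R, and CSF3R had 0 counts in blood too. Their sum was 510 to 3851 TMM CPM in conventional EMB samples 3, 18, 38 and 55 and micro-EMB samples 4, 26 and 44. In the other 30 LV libraries it was 0 to 345, and in blood 3870 to 5636. These 7 are called white cell-rich, defined on unscaled CPM as a sum above 0.1 times the blood median. Sample 3 is among them. The results that rest on both kinds are given with and without them.

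FN1 was low in blood and high in both muscle tissues. In the 6 blood samples it lay at 6.28, 13.7, 16.0, 16.3, 18.0 and 27.5 TMM CPM. In skeletal muscle it lay at 389, 389, 397, 457, 997 and 1024. In baseline conventional EMB it lay at 363, 479, 491, 833, 1167 and 1189. The lowest muscle sample was above every blood sample, while the skeletal muscle and heart ranges overlapped almost fully. FN1 was 47.1-fold higher in conventional EMB than in blood (log2 fold change 5.56 ± 0.48 SE, n = 6 and 6; edgeR quasi-likelihood test with the pig as covariate, adjusted p = 6.54e-08). Blood was 41.2-fold lower than skeletal muscle (log2 fold change -5.37 ± 0.48, edgeR adjusted p = 6.68e-08). Between conventional EMB and skeletal muscle the log2 difference was 0.19 ± 0.39 (95% interval -0.63 to 1.01; edgeR adjusted p = 0.841), so that neither direction was established.

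PLOD1 was likewise lowest in blood, with smaller differences. Its blood levels were 2.83, 5.23, 7.72, 10.4, 15.4 and 17.2 TMM CPM. Skeletal muscle lay at 31.9, 53.5, 54.4, 55.2, 63.5 and 89.7. Baseline conventional EMB lay at 37.4, 40.7, 42.6, 45.0, 54.1 and 71.5. The blood and muscle ranges did not touch, although the blood values rest on 6 to 51 reads per library. PLOD1 was 5.26-fold higher in conventional EMB than in blood (log2 fold change 2.39 ± 0.40; edgeR adjusted p = 9.41e-05), and blood was 6.69-fold lower than skeletal muscle (log2 fold change -2.74 ± 0.41; edgeR adjusted p = 2.05e-05). The log2 difference between conventional EMB and skeletal muscle was -0.35 ± 0.38 (95% interval -1.14 to 0.45; edgeR adjusted p = 0.664).

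TGFB1 ran the other way, with its highest steady level in blood. The blood samples held 101, 122, 134, 138, 142 and 146 TMM CPM. Skeletal muscle held 4.34, 4.36, 15.0, 15.9, 15.9 and 22.1, from 3 to 35 reads per library. Baseline conventional EMB held 10.3, 32.7, 35.0, 47.5, 61.2 and 325. Blood and skeletal muscle did not overlap, and the heart samples lay below blood, with the lowest among the skeletal muscle values, except for sample 38, which exceeded every blood sample. TGFB1 was 8.60-fold higher in blood than in skeletal muscle (log2 fold change 3.10 ± 0.67; edgeR adjusted p = 0.00085). Conventional EMB was 5.70-fold higher than skeletal muscle (log2 fold change 2.51 ± 0.70, 95% interval 1.05 to 3.97; edgeR adjusted p = 0.0280). It did not differ detectably from blood (log2 fold change -0.59 ± 0.63, 95% interval -1.91 to 0.72; edgeR adjusted p = 0.507).

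Both heart results for TGFB1 depended on the libraries with white cell signal. Sample 38 had a white cell marker sum of 2433 TMM CPM and a cardiomyocyte sum of 84.3, the lowest among the LV libraries that passed. Without sample 38, TGFB1 in conventional EMB remained higher than in skeletal muscle at a log2 fold change of 1.43 (edgeR adjusted p = 0.0259) and became lower than in blood at -1.74 (adjusted p = 0.00107). Without both white cell-rich baseline samples, 18 and 38, the log2 difference from skeletal muscle was 1.15 (adjusted p = 0.109), which misses the threshold, and that from blood was -2.07 (adjusted p = 0.00055). The call against skeletal muscle was also lost when skeletal muscle sample 1, 41 or 48 was left out (adjusted p 0.0831, 0.0849 and 0.0748). In bulk tissue, fewer cells of a type and less RNA per cell cannot be told apart.

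For scale, 9.11% of 10800 genes tested were called between conventional EMB and skeletal muscle, 32.7% between conventional EMB and blood, and 40.6% between blood and skeletal muscle. A call required an adjusted p below 0.05 and a log2 fold change beyond 1 in either direction. Of the 3 genes, 1, 2 and 3 were called in these comparisons. FN1 and PLOD1 were among the 24.2% of genes that were higher in conventional EMB than in blood and the 26.4% that were lower in blood than in skeletal muscle. TGFB1 was among the 5.13% higher in conventional EMB than in skeletal muscle and the 14.2% higher in blood than in skeletal muscle. None of the 3 was among the 3.98% lower in conventional EMB than in skeletal muscle or the 8.51% lower in conventional EMB than in blood. The share of all genes whose ranges in 2 tissues did not overlap was not computed. How unusual the separate ranges of the 3 genes are is therefore not known.

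**Figure D1:**
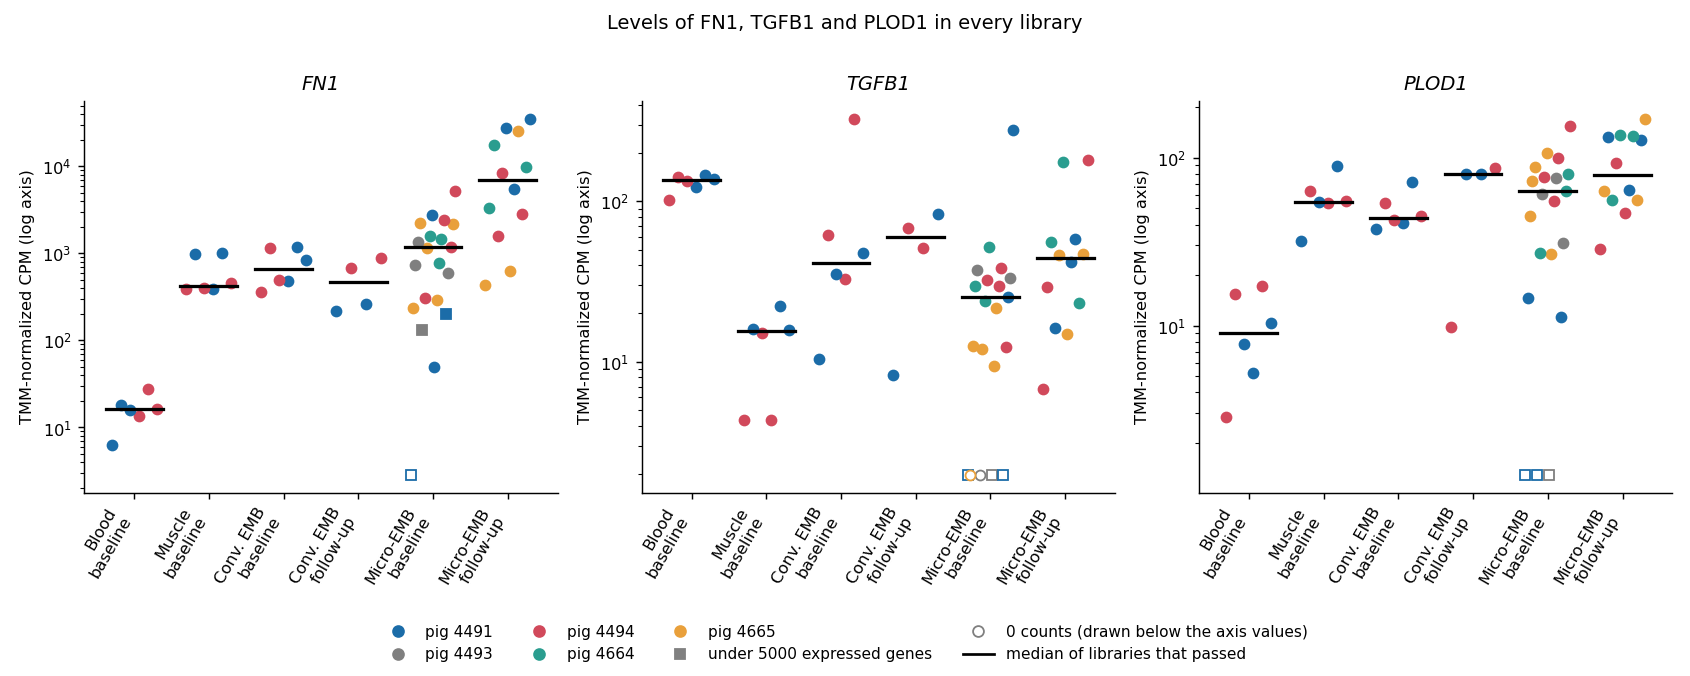
TMM CPM (log axis) of FN1, TGFB1 and PLOD1 in each library by tissue, device and timepoint, with a point per library coloured by pig, a line at each group's median, squares for the 3 libraries with fewer than 5000 expressed genes and open symbols for 0 counts. FN1 reaches 34989 in follow-up micro-EMB against at most 5262 at baseline, while TGFB1 and PLOD1 overlap between the timepoints.

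**Figure D2:**
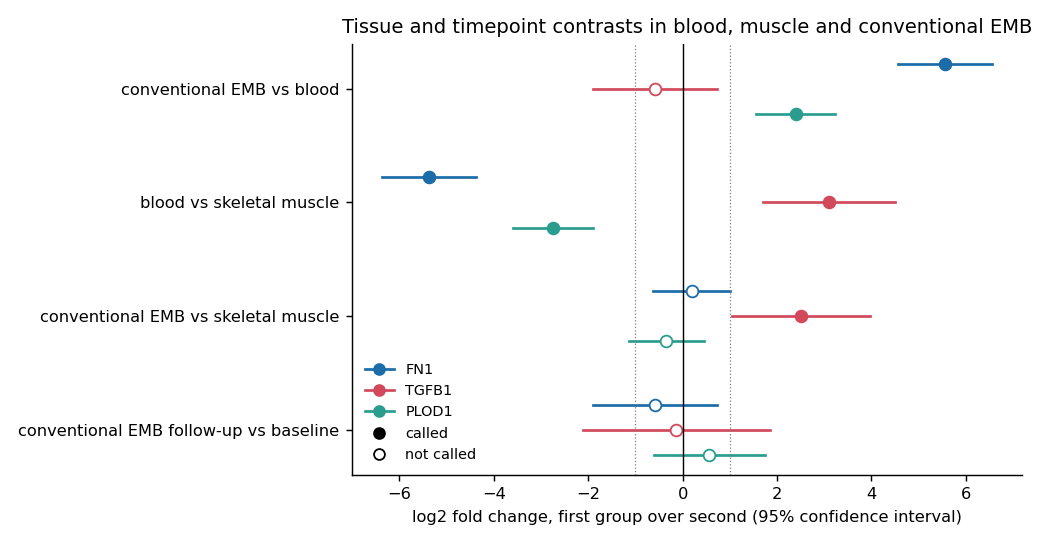
Fitted log2 fold changes of the 3 genes in each comparison (x axis), with 95% intervals as bars. The FN1 and PLOD1 intervals lie clear of 0 against blood, and all 3 intervals include 0 for time in conventional EMB.

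In conventional EMB, none of the 3 genes changed detectably from day 0 to day 7. FN1 at follow-up was 220 and 259.5 TMM CPM in pig 4491 (samples 55 and 56), below all 3 baseline samples of that pig. It was 682 and 886 in pig 4494 (samples 3 and 50), within the baseline range. The log2 fold change was -0.58 ± 0.61 (95% interval -1.89 to 0.74; edgeR adjusted p = 0.973). TGFB1 at follow-up was 83.7, 8.28, 68.2 and 51.0 in the same order, within the spread of baseline apart from the lowest value, with a log2 fold change of -0.13 ± 0.91 (-2.11 to 1.84; edgeR adjusted p = 0.994). PLOD1 at follow-up was 79.6, 80.1, 9.75 and 86.7, so that 3 of 4 samples exceeded the highest baseline sample and sample 3 was below the lowest. Sample 3 had 74767 reads, and its PLOD1 level rests on 1 read. The PLOD1 log2 fold change was 0.56 ± 0.54 (-0.61 to 1.74; edgeR adjusted p = 0.973). Across all genes, 3.30% of 9622 had at least 3 of 4 follow-up samples above the highest baseline sample.

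An exact two-sided permutation of the timepoint within pigs, with 100 relabellings, gave p = 0.29 for FN1, 0.84 for TGFB1 and 0.94 for PLOD1. The edgeR fit called 0 of 9622 genes (0%), 302 genes had an unadjusted p below 0.05, and DESeq2 called 58. White cell-rich samples made up 2 of 4 at follow-up and 2 of 6 at baseline, and their part in these values was not tested beyond leaving them out.

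In micro-EMB, FN1 was the gene of the 3 whose level differed most between timepoints. In the 17 baseline libraries it ranged from 49.5 to 5262 TMM CPM with a median of 1174. In the 12 follow-up libraries it ranged from 429 to 34989 with a median of 6939, a ratio of medians of 5.91. The follow-up values were 27692, 5533 and 34989 in pig 4491, 1589, 2830 and 8346 in pig 4494, 9728, 17623 and 3308 in pig 4664, and 627, 25366 and 429 in pig 4665. In 7 of 12 follow-up libraries FN1 was above the highest baseline library, which holds for at least 7 libraries in 0.179% of 10029 genes. In pigs 4491 and 4664 all 3 follow-up libraries exceeded every baseline library of the same pig. In pig 4494 this held for sample 44 alone, and in pig 4665 for sample 52 alone, where the other two follow-up samples were below that pig's baseline median. The ratio of the follow-up to the baseline median thus ran from 0.539 in pig 4665 and 1.58 in pig 4494 to 6.60 in pig 4664 and 19.9 in pig 4491. The 19.9 stands on 2 baseline libraries far apart, 49.5 in the cardiomyocyte-poor and white cell-rich sample 4 and 2739 in sample 16. The share of all genes with such separation within a pig was not computed.

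TGFB1 differed less between the timepoints of micro-EMB. It ranged from 0 to 277 TMM CPM at baseline (median 25.3) and from 6.79 to 180 at follow-up (median 44.0), a ratio of 1.74. The direction differed between pigs, with a ratio of medians of 3.83 in pig 4665 and 1.90 in pig 4664, but 0.940 in pig 4494 and 0.277 in pig 4491. The 0.277 stands on 2 baseline libraries, of which 1 was the white cell-rich sample 4. None of the 12 follow-up libraries exceeded the highest baseline library, which was sample 4, and 8 of 12 exceeded the baseline median. The share of all genes with such a count above the baseline median was not computed. Its 2 highest follow-up levels were 180 in the white cell-rich sample 44 and 175 in the cardiomyocyte-poor sample 36. No TGFB1 read was counted in baseline samples 29 and 45, which had 1132212 and 1109262 reads, so that a level below the floor of 3 counts is all that can be said of them.

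PLOD1 varied least. It ranged from 11.3 to 155 TMM CPM at baseline (median 63.8) and from 28.7 to 170 at follow-up (median 78.6), a ratio of 1.23. Only sample 52 exceeded the highest baseline library, whereas 41.0% of all genes had at least 1 follow-up library above that mark. The spread of log2 levels within timepoints was smaller for PLOD1 (SD 0.91) than for TGFB1 (1.66) and FN1 (1.84). The pigs did not agree in direction: the ratio of medians was 9.85 in pig 4491 and 2.11 in pig 4664, but 0.530 in pig 4494 and 0.871 in pig 4665. The 9.85 stands on 2 baseline libraries, of which sample 4 was cardiomyocyte-poor.

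The fitted log2 fold changes with the pig as covariate, given without a test, were 2.60 ± 0.65 for FN1, 0.86 ± 0.63 for TGFB1 and 0.62 ± 0.41 for PLOD1, against a median of 0.09 over all genes. Without the 5 libraries that were cardiomyocyte-poor or white cell-rich, 9 follow-up and 15 baseline libraries remained. The ratio of medians was then 2.82 for FN1, 1.22 for TGFB1 and 1.01 for PLOD1. FN1 was above the highest remaining baseline library in 6 of 9 and TGFB1 in 2 of 9, while no PLOD1 level was. The share of all genes with such counts was not computed for these remaining libraries, so how unusual they are is not known. The cardiomyocyte-poor samples 36 and 52 held 17623 and 25366 TMM CPM of FN1, below samples 8 and 34 alone. The 2 highest, samples 34 and 8, had cardiomyocyte sums of 46215 and 12319 TMM CPM and were not set aside.

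The devices could be set side by side in pigs 4491 and 4494. At baseline the FN1 median was 1793 TMM CPM in 6 micro-EMB libraries and 662 in 6 conventional EMB libraries, a ratio of 2.71 with overlapping ranges. At follow-up the medians were 6939 and 471, a ratio of 14.7. All 6 follow-up micro-EMB libraries, from 1589 upwards, were above all 4 conventional EMB libraries, of which the highest was 886. Over all genes, 1.35% of 10706 were separated in this way. For TGFB1 the ratio of the micro-EMB to the conventional EMB median was 0.752 at baseline and 0.595 at follow-up, and for PLOD1 it was 1.51 and 0.984, with overlapping ranges throughout.

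Whether the 3 genes rose together was described first by sample. At baseline 3 of 17 micro-EMB libraries were above the baseline median for all 3 genes, and at follow-up 6 of 12 were. At follow-up 1 library was above the median for none, 3 for a single gene and 2 for a pair. Such counts were not made for other genes, of which 56.9% had a higher fitted level at follow-up. The 3 genes were chosen for a rise in some follow-up micro-EMB samples, which favours such a joint excess. The 5 follow-up libraries with the highest PLOD1, samples 52, 17, 36, 34 and 8 with 127 to 170 TMM CPM, were also the 5 with the highest FN1, from 9728 to 34989. In these 5, TGFB1 was 46.1, 56.1, 175, 41.9 and 58.1, each above the baseline median of 25.3. The sample with the highest TGFB1 at follow-up, number 44, had the second lowest PLOD1 (46.9).

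The pairs differed in how closely they went together. Over the 29 micro-EMB libraries, Pearson's r of log2 levels was 0.622 for FN1 and PLOD1 (Spearman's rho 0.570), and the libraries share pigs and both timepoints. Within the timepoints r of this pair was 0.547 at baseline and 0.630 at follow-up, and it was 0.414 without the cardiomyocyte-poor libraries. Sample 4, cardiomyocyte-poor and white cell-rich, was the lowest baseline library for both genes (49.5 and 11.3 TMM CPM). The baseline r without sample 4 was not computed. For FN1 and TGFB1 r was 0.150 (rho 0.327), with -0.353 (rho 0.004) at baseline and 0.484 (rho 0.524) at follow-up. For TGFB1 and PLOD1 r was 0.054 (rho 0.260), with -0.244 (rho -0.021) at baseline and 0.471 (rho 0.364) at follow-up. The ranks thus showed almost no relation at baseline in either pair with TGFB1. Without the white cell-rich libraries r over both timepoints became 0.347 for FN1 and TGFB1 and 0.351 for TGFB1 and PLOD1. The genes were chosen for a rise in some of these samples, so these values have no p.

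In samples that played no part in the choice, no pair was correlated after adjustment over the 9 pairs. In the 10 conventional EMB libraries r was 0.067 for FN1 and TGFB1 (rho -0.018), -0.285 for FN1 and PLOD1 (rho -0.297) and -0.107 for TGFB1 and PLOD1 (rho -0.042). The two-sided permutation p-values for r were 0.853, 0.458 and 0.736, and those for rho 0.973, 0.407 and 0.919. Without the 2 libraries farthest from the median the r values were -0.174, 0.074 and -0.020. In blood the exact permutation p-values for r ranged from 0.182 to 0.531 and in skeletal muscle from 0.479 to 0.772 (n = 6 each). The highest of these correlations was r = 0.624 for FN1 and PLOD1 in blood (rho 0.771). All 9 adjusted p-values for r were 0.853, and those for rho were 0.925 to 0.973.

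The lack of a relation between FN1 and TGFB1 in conventional EMB depended on which libraries were kept. In the 6 that remained without the white cell-rich ones, r was 0.874 and rho 0.943 (exact permutation p = 0.00417 and 0.0167, adjusted 0.0375 and 0.15). The 8 left without the cardiomyocyte-poor ones still held the white cell-rich samples 3 and 18. In these 8, r was 0.829 and rho 0.690 (exact permutation p = 0.00905 and 0.0694, adjusted 0.0815 and 0.4625). Among the 6, the lowest TGFB1 (8.28 in sample 56) went with the lowest FN1 (259.5), and the highest FN1 values, 1189 and 886, with TGFB1 of 47.5 and 51.0. These sets of libraries were chosen after the values had been seen.

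**Figure D3:**
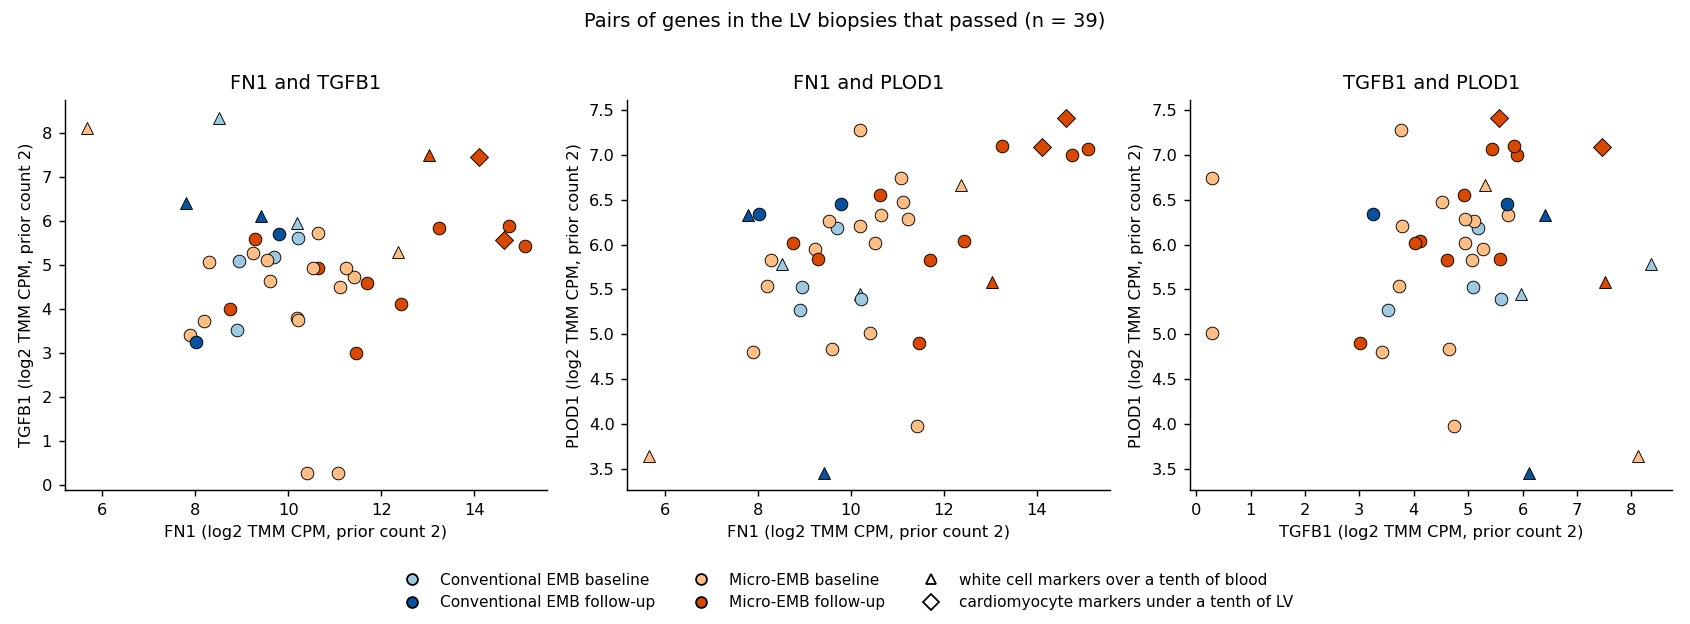
Log2 TMM CPM of each pair of the 3 genes in LV libraries, with a symbol per library; triangles are white cell-rich libraries, some of them also cardiomyocyte-poor, and diamonds are cardiomyocyte-poor only, and colours give device and timepoint. FN1 and PLOD1 run together in micro-EMB (r = 0.622), whereas the 3 highest TGFB1 levels, 180 to 325 TMM CPM, are triangles.

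The marker genes of other cell types moved with the 3 genes in different ways, described over the 39 LV libraries. TGFB1 went with the white cell sum (r = 0.761, rho 0.660) and against the cardiomyocyte sum (r = -0.573, rho -0.421). FN1 went with the fibroblast sum, for which 4 of 7 markers matched (PDGFRA, DCN, LUM and FBLN2; r = 0.677, rho 0.741), and with the macrophage sum of 5 of 7 markers (r = 0.586, rho 0.615). PLOD1 went with the fibroblast sum at r = 0.590 (rho 0.571). TGFB1 showed no such relation with fibroblast markers (r = -0.276, rho -0.099). The 39 libraries mix devices and timepoints. Within the 12 follow-up micro-EMB libraries r of FN1 was 0.4325 with the fibroblast sum (rho 0.420) and 0.383 with the macrophage sum (rho 0.308). For PLOD1 and the fibroblast sum it was 0.491 there (rho 0.427), and for TGFB1 and the white cell sum 0.678 (rho 0.636).

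The fibroblast sum itself ranged from 54.0 to 5369 TMM CPM in baseline micro-EMB (median 1351) and from 284 to 5161 at follow-up (median 1921). The macrophage sum had a median of 178 (31.5 to 2488) at baseline and 298 (109 to 553) at follow-up. The cardiomyocyte sum had a median of 96003 (169 to 167134) at baseline and 47031 (612 to 115039) at follow-up. Within the 12 follow-up libraries FN1 went against the cardiomyocyte sum (r = -0.543, rho -0.685) and so did PLOD1 (r = -0.553, rho -0.573) and TGFB1 (r = -0.687, rho -0.566). Over the 39 LV libraries r with this sum was 0.079 for FN1 (rho -0.222) and 0.061 for PLOD1 (rho -0.200). No matched cardiomyocyte, fibroblast or macrophage marker was at 0 throughout a timepoint of micro-EMB. The part of cell makeup in the levels of the 3 genes was not tested.

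**Figure D4:**
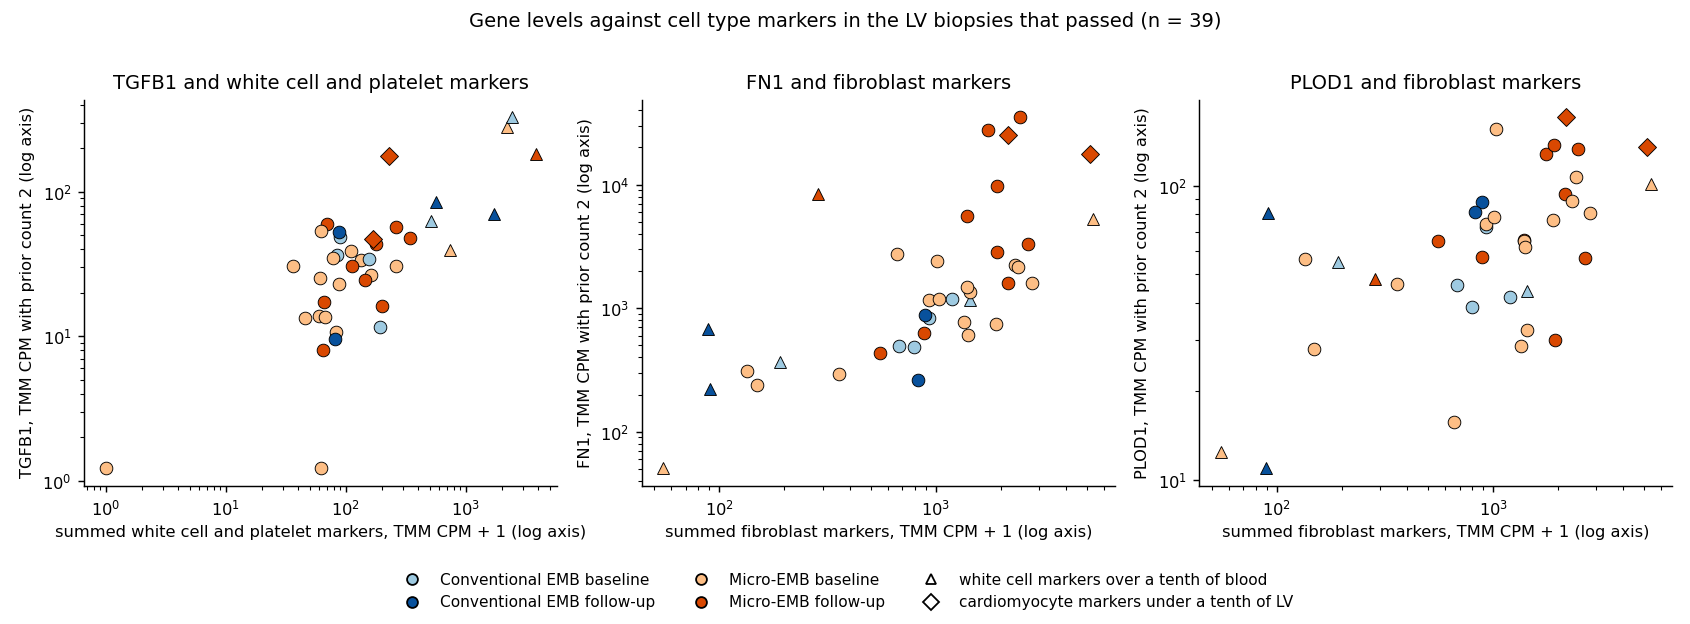
TMM CPM (log axis) of TGFB1 against the sum of the white cell and platelet list (log axis), in which no platelet marker matched. FN1 and PLOD1 are set against the summed fibroblast markers (log axis). The 39 LV libraries are shown with a symbol per library as in the plot of gene pairs. TGFB1 rises along the white cell sum (r = 0.761), and FN1 along the fibroblast sum (r = 0.677).

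Among 14631 genes ranked by Spearman's rho over the 39 LV libraries, the genes most like FN1 were matrix genes. The 5 named ones were CCDC80 (0.865), a secreted matrix protein, COL1A2 (0.855), COL14A1 (0.847) and COL3A1 (0.838), all collagen chains, and SPARC (0.837), a collagen-binding glycoprotein. For PLOD1 they were QSOX1 (0.796), an enzyme that forms disulfide bonds in secreted proteins, CORO2B (0.744), PLOD2 (0.740), the lysyl hydroxylase of collagen telopeptides, CUL7 (0.737) and LRRC41 (0.708). For TGFB1 they were CD86 (0.761), a costimulatory molecule of antigen-presenting cells, ARHGAP25 (0.737), a GTPase regulator of blood cells, LRRC8C (0.734), TWF1 (0.730) and CAP1 (0.724), the last pair being actin regulators. None of these 5 encodes a matrix protein.

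The 3 genes were not close neighbours of each other in this ranking. PLOD1 stood at rank 392 for FN1 (rho 0.481), with 2.67% of genes closer. TGFB1 stood at rank 4824 for FN1 (rho 0.096), with 33.0% closer. The median rho with the 12 collagen chains was 0.759 for FN1, 0.564 for PLOD1 and -0.092 for TGFB1, against medians over all genes of -0.009, 0.066 and 0.027. With 12 genes of collagen modification it was 0.550, 0.584 and 0.072.

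Several partners of FN1 were called higher in heart than in skeletal muscle. Of 12 fibronectin receptors and matrix partners tested, 6 were called higher in conventional EMB and none lower, where 5.13% of all genes were called higher, and the list's median log2 fold change was 1.60 against 0.04 for all genes. TGM2, which cross-links fibronectin, was higher by 2.70 ± 0.33 on the log2 scale (edgeR adjusted p = 1.60e-05). ITGA5, the alpha chain of the main fibronectin receptor, was higher by 2.96 ± 0.38 (edgeR adjusted p = 2.80e-05), with medians of 366 TMM CPM in heart and 58.6 in skeletal muscle. THBS1, a matrix protein of platelets that can activate latent TGF-beta, was higher by 3.58 ± 0.59 (edgeR adjusted p = 0.000514). FBLN1, a fibronectin-binding matrix protein (3.04 ± 0.55), and the integrin beta chains ITGB3 and ITGB1 made up the rest, and the last pair lost their calls in 11 of 27 alternatives each. The count was 6 without the white cell-rich libraries and 5 without the cardiomyocyte-poor one. It was 3 with 1 fit over all samples and 0 with counts summed per pig, where no gene at all was called between these tissues and the list's median was 2.13. FN1 itself was not called in this comparison.

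Few of the TGF-beta genes were called between the muscle tissues. Of 15 other ligands, latency proteins and receptors, 11 had a positive difference and the median was 1.10. Only the receptor TGFBR2 was called higher in conventional EMB than in skeletal muscle (1.32 ± 0.41, edgeR adjusted p = 0.0446), and this call was lost in 17 of 27 alternatives, among them the one without white cell-rich libraries. With library size alone as the scaling, 4 of the 15 were called higher. Of 11 transducers and target genes, the signal transducer SMAD2 was called (1.58 ± 0.40, edgeR adjusted p = 0.0145). Of 5 matrix turnover genes, MMP9, a protease of neutrophils, was called (6.96 ± 1.58, edgeR adjusted p = 0.00734), but the 6 skeletal muscle libraries held 1 read together and 314 of the 339 heart reads came from 1 library. None of 12 collagen chains and none of 9 collagen modification genes was called. COL3A1 (0.24 ± 0.66) and LOX, the lysyl oxidase that acts after PLOD1 (1.14 ± 1.11), were among them.

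Against blood, the matrix genes separated as FN1 and PLOD1 did. In conventional EMB 12 of 12 collagen chains, 7 of 9 collagen modification genes and 11 of 12 fibronectin partners were called higher, where 24.2% of all genes were. COL3A1 lay at 2515 to 7437 TMM CPM in heart and 0 to 7.56 in blood, and its blood reads were too few for a fold change. Of the 15 TGF-beta ligands, latency proteins and receptors 11 were called higher, and of the 11 transducers and targets 7 were. The exceptions, called lower in heart, were ITGA4, an integrin chain of white cells (-3.20 ± 0.72, edgeR adjusted p = 0.00156), NRROS, which anchors latent TGF-beta on myeloid cells (-3.00 ± 0.62, edgeR adjusted p = 0.000654), and SMAD2 (-1.51 ± 0.38, edgeR adjusted p = 0.00386). TGFBR2 was not called (0.57 ± 0.39), and ITGA5 was higher (1.81 ± 0.35, edgeR adjusted p = 0.000415). Of 5 turnover genes 3 were called higher in heart.

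Between blood and skeletal muscle the genes called lower in blood were 12 of 12 collagen chains, 6 of 9 modification genes, 7 of 12 fibronectin partners, 9 of 15 TGF-beta ligands and receptors, 5 of 11 transducers and targets and 2 of 5 turnover genes. Those called higher in blood numbered 0, 0, 2, 1, 1 and 1 in the same order. Over all genes 26.4% were lower and 14.2% higher in blood.

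Over time, POSTN was the one gene called in micro-EMB (0.00997% of 10029 genes). It encodes periostin, a matrix protein that TGF-beta induces in activated fibroblasts. Its level was 54.9 to 1450 TMM CPM at baseline (median 313) and 232 to 13885 at follow-up (median 1564), a 10.0-fold higher fitted level (log2 fold change 3.33 ± 0.61; edgeR adjusted p = 0.0471). The call was lost without the cardiomyocyte-poor libraries (log2 fold change 2.53, adjusted p = 1.00), without the white cell-rich ones (3.49, adjusted p = 0.146), and without any of pigs 4491, 4493, 4494 and 4664. At an unadjusted p below 0.05 there were 378 genes, and DESeq2 called 18. In conventional EMB the POSTN log2 fold change was -0.06 ± 0.80 (edgeR adjusted p = 0.999).

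None of the other listed genes passed in micro-EMB, and their fitted differences were mostly positive. The median log2 fold change was 1.21 in 12 collagen chains (11 positive), 1.09 in 11 modification genes (11), 0.83 in 12 fibronectin partners (12), 0.52 in 15 TGF-beta ligands and receptors (14), 1.16 in 11 transducers and targets (11) and 1.17 in 4 turnover genes (4), against 0.09 and 56.9% positive over all genes. COL3A1 stood at 1.23 ± 0.61, LOX at 1.53 ± 0.72, ITGA5 at 0.56 ± 0.34 and TGFBR2 at 0.34 ± 0.41. Without the cardiomyocyte-poor libraries the list medians were 0.37, 0.63, 0.23, 0.34, 0.68 and 0.34 in the same order, and TGFBR2 turned to -0.11. In conventional EMB the medians in that order were -1.08, -0.03, -0.55, -0.30, -0.24 and 0.20, and no gene was called. COL3A1 was at -1.36 ± 1.06, TGFBR2 at -1.16 ± 0.59, LOX at -0.64 ± 0.89 and ITGA5 at -0.13 ± 0.52. The difference between the devices in these changes was not tested. The lists were written with earlier results of these data known, and their counts and medians are a description.

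**Figure D5:**
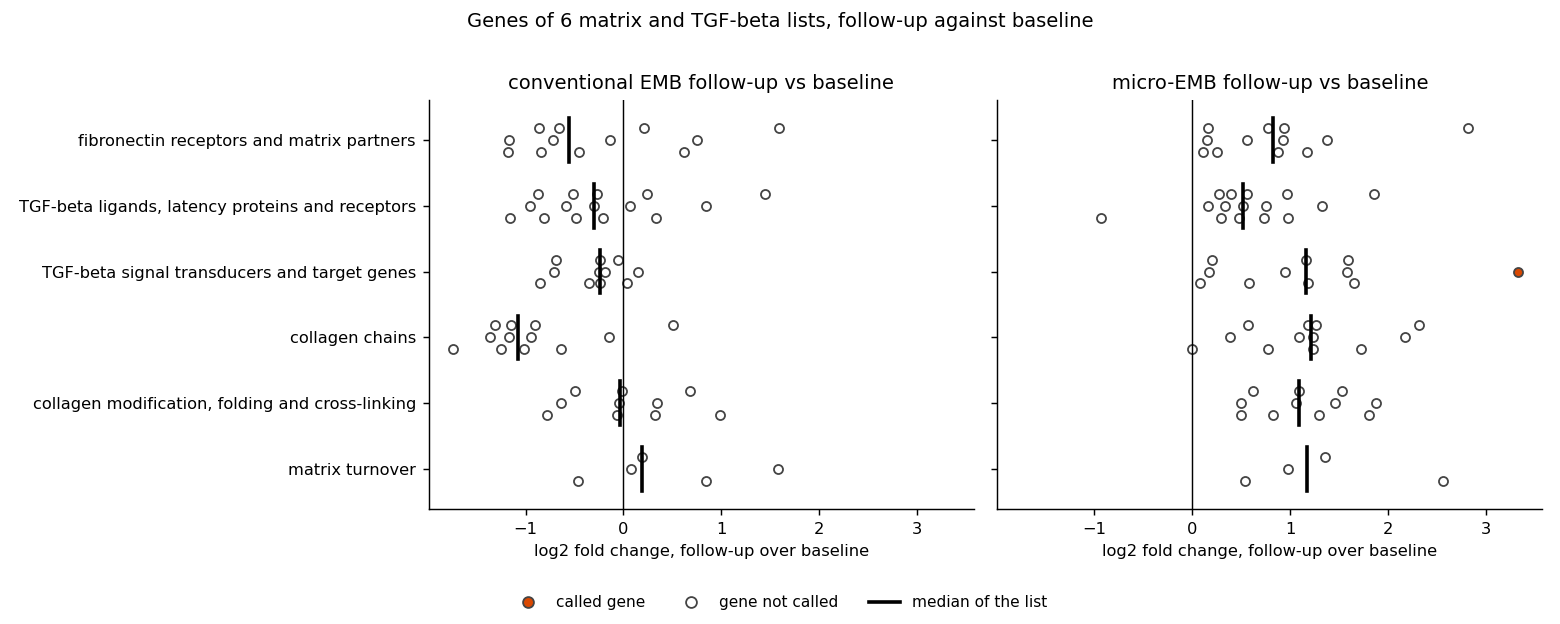
Log2 fold changes from baseline to follow-up (x axis) of the genes of 6 pathway lists in conventional EMB and micro-EMB, with a point per gene, filled where called, and a bar at each list's median. In micro-EMB over time most points lie above 0 with POSTN (3.33) alone called, and in conventional EMB over time none is called.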

How the data were processed

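RNA from the biopsies had been isolated with the RNAdvance Tissue kit at reduced volumes and made into libraries with the SMARTer Stranded Total RNA-Seq kit. The authors trimmed the reads with Trim Galore, mapped them to the pig genome (Sscrofa10.2) with STAR and assigned them to genes with featureCounts, with ribosomal RNA and mitochondrial genes left out; versions are not given in the sources used here. The deposited values are raw counts per gene for 54 libraries, of 64216 to 4649613 reads each. Isolation batches are not in the labels.

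Groups, pigs and days were taken from the labels. Symbols came from a RefSeq-based name table, and 11791 of 25114 identifiers had one. Levels are TMM CPM over all libraries, and log2 levels used a prior count of 2. A level of 0 stands for a count below the floor of 3 reads, which covers counting error only. Tissues at baseline and timepoints were fitted with edgeR 4.0.16 in R 4.3.3 (TMM, filterByExpr, quasi-likelihood test, pig as covariate), and p-values were adjusted by Benjamini-Hochberg across every gene in the fit; standard errors are the fold change divided by the square root of F. DESeq2 1.42.0 was an alternative. The fits were tested on simulated data. Correlations used two-sided permutation tests, exact with up to 8 libraries and with 100000 resamples otherwise, in scipy 1.17.1, with p-values adjusted over 9 pairs. Figures were drawn with matplotlib 3.10.9.

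The 3 genes, the pathway lists and the cell type markers were chosen with earlier results of these data known. Pathway genes named are up to 3 of lowest p per list and direction among those called, plus COL3A1, TGFBR2, ITGA5 and LOX. The like genes are the 5 with a symbol and the highest rho. ITGB1, ITGB3 and the values of sample pairs were chosen after their values were seen. Alternatives changed the tool, normalization, filter, prior count and covariate, summed counts per pig, and left out shallow libraries, replicates or pigs; those without white cell-rich or cardiomyocyte-poor libraries were added after seeing the data. COL1A1, COL6A1 and other listed genes without a match or a count, and the promoters, were not analysed here.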

Additional observations from a re-analysis of the deposited data

Results flagged for a closer look

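PLOD1 in conventional EMB at follow-up held a single library far from the others. Sample 3 lay at 9.75 TMM CPM, while the others lay between 79.6 and 86.7. On log2 levels its gap to the nearest was 0.960 of the group's whole range (Dixon's critical value 0.829, n = 4). The value rests on 1 read in a library of 74767 reads, below the floor of 3 counts. Its red cell markers summed to 5313 TMM CPM and its white cell markers to 1716. Of 12 gene and group pairs examined this was the only one past the limit, and chance marks about 1 in 20 groups.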

How the results depend on the processing

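FN1 and PLOD1 kept their calls against blood, and blood against skeletal muscle, under all 27 alternatives. The TGFB1 call between conventional EMB and skeletal muscle was lost when counts were summed per pig (log2 fold change 2.73), with 1 fit over all samples (2.69) and without white cell-rich libraries (1.15). Leaving out single libraries gave 1.43 to 2.87. Against blood it became called at -2.07 without white cell-rich and -1.74 without cardiomyocyte-poor libraries (-1.74 to -0.27 leaving out single libraries), and blood against skeletal muscle was lost when summed per pig (3.17). PLOD1 between conventional EMB and skeletal muscle turned to 0.0070 with library size alone. Summing per pig left 0 genes called between conventional EMB and skeletal muscle, 1916 between conventional EMB and blood and 2677 between blood and skeletal muscle, with fewer samples in the fit, and 1 fit over all samples called 272 in the first.

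For time in conventional EMB, DESeq2 called 58 genes and no filter 106. FN1 turned to 0.36 without libraries under 1000000 reads. TGFB1 turned to 0.17 with DESeq2, 0.59 with library size alone and 0.034 without the blood-rich sample 3, and ran from -1.48 to 0.73 leaving out single libraries. In micro-EMB, DESeq2 called 18 genes, no filter 16 and no pig covariate 8, and 0 were called with library size alone, without libraries under 1000000 reads, without white cell-rich or without cardiomyocyte-poor libraries. Leaving out pigs gave 0 to 1.

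Of the pathway genes, LOX between conventional EMB and skeletal muscle turned to -0.14 without white cell-rich libraries. For time in conventional EMB, ITGA5 turned to 0.07 (DESeq2), 0.30 (library size alone), 0.027 (summed per pig), 0.079 (without sample 3), 0.19 (without libraries under 1000000 reads), 0.50 (without white cell-rich) and 0.29 (without cardiomyocyte-poor), and ran from -0.46 to 0.15 leaving out single libraries. LOX turned to 0.12 and COL3A1 to 0.36 without libraries under 1000000 reads, and LOX to 0.77 without white cell-rich ones. TGFBR2 in micro-EMB turned to -0.032 without the pig covariate, -0.060 without libraries under 1000000 reads and -0.11 without cardiomyocyte-poor ones, and ran from -0.048 to 0.80 leaving out pigs.

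Correlations in conventional EMB moved widely. FN1 and TGFB1 had r = -0.097 on variance-stabilized counts, -0.569 without libraries under 1000000 reads, -0.083 as deviations from pig and timepoint means, -0.174 without the 2 farthest libraries and 0.874 without white cell-rich ones. FN1 and PLOD1 had 0.131 as deviations and 0.074 without the 2 farthest. TGFB1 and PLOD1 had 0.132 on variance-stabilized counts, 0.038 without sample 3, 0.045 as deviations and 0.067 without white cell-rich libraries. In blood, FN1 and TGFB1 had 0.129 without the 2 farthest. In skeletal muscle, FN1 and TGFB1 had -0.333 as deviations and -0.528 without the 2 farthest, FN1 and PLOD1 0.598 on variance-stabilized counts and 0.997 without the 2 farthest (n = 4), and TGFB1 and PLOD1 0.141 on variance-stabilized counts.

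In micro-EMB, FN1 and TGFB1 had 0.397 without libraries under 1000000 reads, 0.461 with all libraries, 0.387 without the 2 farthest and 0.347 without white cell-rich ones. FN1 and PLOD1 had 0.449, 0.738 and 0.479 under the first 3 of these and 0.414 without cardiomyocyte-poor libraries. TGFB1 and PLOD1 had 0.279 without libraries under 1000000 reads, 0.459 as deviations, 0.578 with all libraries and 0.351 without white cell-rich ones. The cause of these changes was not tested. The calls of FN1, TGFB1 and PLOD1 rest on 2 pigs, and TGFB1 in muscle tissue and PLOD1 in blood on few reads per library.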
